A study of Homo sapiens with 9 samples.

Results

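Mitosis and spindle genes encode the proteins that carry a cell from late G2 through division. The 52 genes described here were chosen by name. They are the mitotic cyclins with CDK1 and the CDC25 phosphatases, the mitotic kinases, the spindle checkpoint, the kinetochore, the chromosomal passenger complex, the mitotic kinesins, spindle assembly factors, the central spindle, regulators of anaphase entry, a pair of mitotic chromosome proteins and a pair of transcription factors. Each of the 52 symbols matched 1 of the 58395 gene identifiers, and all 52 passed the low-count filter, which left 16761 genes in the test.

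RNA was taken from MDA-MB-231, an established triple-negative breast cancer cell line, 96 h after reverse transfection with siRNA. Each of 3 groups held 3 libraries. One group received the nontargeting control siRNA (siNC), and the others received different siRNAs against ZIP7, named siZIP7_1 and siZIP7_2, so that cells in every group carried an siRNA. ZIP7 is the zinc transporter encoded by SLC39A7, which moves zinc from the endoplasmic reticulum into the cytosol, and the libraries were made to profile the transcriptional response to its loss. The paper describes transfection in triplicates, and the labels do not say whether libraries of a group came from separate cultures. The p-values therefore measure the spread between these libraries, which may be technical. The libraries held 24153785 to 30454419 reads counted on genes, and levels are given as CPM, a gene's reads scaled to a common library size, after TMM normalization. A count of 3, taken as the floor for a detected gene, corresponded to 0.0985 to 0.124 CPM. This floor covers counting error only.

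The targeted gene was lower in every library of both siZIP7 groups. SLC39A7 (ENSG00000112473) stood at 321, 343 and 322 CPM in the siNC libraries, at 35.4, 32.9 and 38.6 CPM with siZIP7_1 and at 20.5, 19.5 and 17.6 CPM with siZIP7_2. The cell line was checked against its markers. VIM, the most abundant marker of a mesenchymal-type breast cancer line, averaged 5529, 2687 and 2896 CPM in siNC, siZIP7_1 and siZIP7_2. The 6 markers of this kind summed to 9850, 6561 and 8081 CPM, and 1 was called higher and 5 lower with siZIP7_1, and 3 and 3 with siZIP7_2. An adjusted p under 0.05 in edgeR is meant by called here, and 34.8% of all genes tested were called higher and 35.9% lower with siZIP7_1, and 38.5% and 39.3% with siZIP7_2. PGR, the progesterone receptor, was at or under the floor of 3 counts in every library, and ESR1, the estrogen receptor, averaged 0.0887 CPM in siNC, under the floor, and 0.501 CPM with siZIP7_2. The 7 hormone receptor and luminal markers summed to 113% and 82.5% of their siNC level with siZIP7_1 and siZIP7_2, mostly from ERBB2, and of the 6 tested 4 were called higher and 1 lower with siZIP7_1, and 3 and 3 with siZIP7_2. Leukocyte markers summed to 1.59, 1.11 and 0.710 CPM in siNC, siZIP7_1 and siZIP7_2, with PTPRC the most abundant of 4 over all libraries and CD3E at or under the floor in every library. Of the 2 tested, PTPRC was called higher with siZIP7_1 (0.875 against 0.402 CPM in siNC), and LYZ was called lower with siZIP7_1 (0.0465 CPM, under the floor, against 1.06 CPM) and with siZIP7_2 (0.31 CPM). CDH1, which encodes the epithelial cadherin, averaged 0.466, 4.18 and 0.998 CPM in the same order, and the part of these markers in the results below was not tested.

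At mitotic entry, CDK1 bound to cyclin B is switched on by CDC25 phosphatases and phosphorylates many proteins, while PLK1 and the Aurora kinases drive spindle assembly. The checkpoint proteins hold the anaphase-promoting complex inactive until each kinetochore is attached to the spindle, after which CDC20 triggers the destruction of securin and cyclin B, separase cuts cohesin, and the central spindle directs cytokinesis. Transcription of most of these genes is periodic. It is low in G1, rises to a peak in G2 and mitosis, and is known to depend on the DREAM and MuvB complexes, MYBL2 and FOXM1. Levels of such periodic genes in a growing culture therefore follow the share of cells near mitosis. In bulk RNA a smaller share of such cells and less RNA per cell cannot be told apart.

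Most mitosis and spindle genes were lower with each siRNA than with siNC. A gene was called when its adjusted p was under 0.05 in the quasi-likelihood test of edgeR, adjusted over all 16761 genes by the Benjamini-Hochberg method. With siZIP7_1, 46 of the 52 were called lower, 0 were called higher and 6 were not called (NEK2, NUF2, CENPF, NUSAP1, ECT2 and ESPL1). Among all genes tested, 35.9% were called lower and 34.8% higher in that comparison. With siZIP7_2, 42 of the 52 were called lower, 3 higher and 7 were not called, where 39.3% of all genes were called lower and 38.5% higher. The 3 higher genes were CENPA, NEK2 and KIF14, and those not called were CDC25C, BUB3, TPX2, ASPM, PRC1, ECT2 and PTTG1. At an unadjusted p under 0.05 the count of higher genes with siZIP7_1 was 0 in edgeR and 0 in DESeq2, and the only positive fold change there was that of ECT2 (log2 fold change 0.07, adjusted p = 0.336).

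Because most genes in this series passed the plain test, the genes were also tested against a minimum change of 1.5-fold with glmTreat of edgeR. With siZIP7_1, 23 of the 52 were lower by more than 1.5-fold and 0 were higher, against 13.8% and 13.9% of all genes. With siZIP7_2, 19 were lower by more than 1.5-fold and 1, CENPA, was higher, against 18.3% and 20.0% of all genes. The median log2 fold change of the 52 was -0.61 with siZIP7_1 and -0.46 with siZIP7_2, and the median over all genes tested was -0.01 and -0.00. Both comparisons use the same siNC libraries.

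The summed level of the 52 genes was lower in each of the 6 siZIP7 libraries than in any siNC library. The sum was 9644.9, 9850.2 and 9549.9 CPM in the siNC libraries, 6546.5, 7227.5 and 6443.2 CPM with siZIP7_1, and 6224.0, 7250.3 and 6886.8 CPM with siZIP7_2. The group means were 69.6% and 70.1% of the siNC mean. Within each siZIP7 group the genes moved together from library to library. Replicate 2 of siZIP7_1 held the highest value of its group for 48 of the 52 genes and for the sums of all 11 role groups, and replicate 1 of siZIP7_2 held the lowest of its group for 48 genes and for all 11 sums. Replicate 2 was also most often the highest in the other groups. It led for 45 genes and 10 sums with siZIP7_2, and for 23 genes and 7 sums in siNC. The share of reads outside annotated genes was 7.43% to 8.28% in siNC, 7.80% in siZIP7_1 replicate 2, 9.42% and 9.62% in the other siZIP7_1 libraries and 9.99% to 11.5% with siZIP7_2, and its part in these values was not tested. Without siZIP7_1 replicate 2, 47 of the 52 were called lower with siZIP7_1, and without siZIP7_2 replicate 1, 39 were called lower with siZIP7_2. Of all genes tested, 5958 were called lower and 5799 higher in the former fit, and 6367 and 6376 in the latter.

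**Figure D1:**
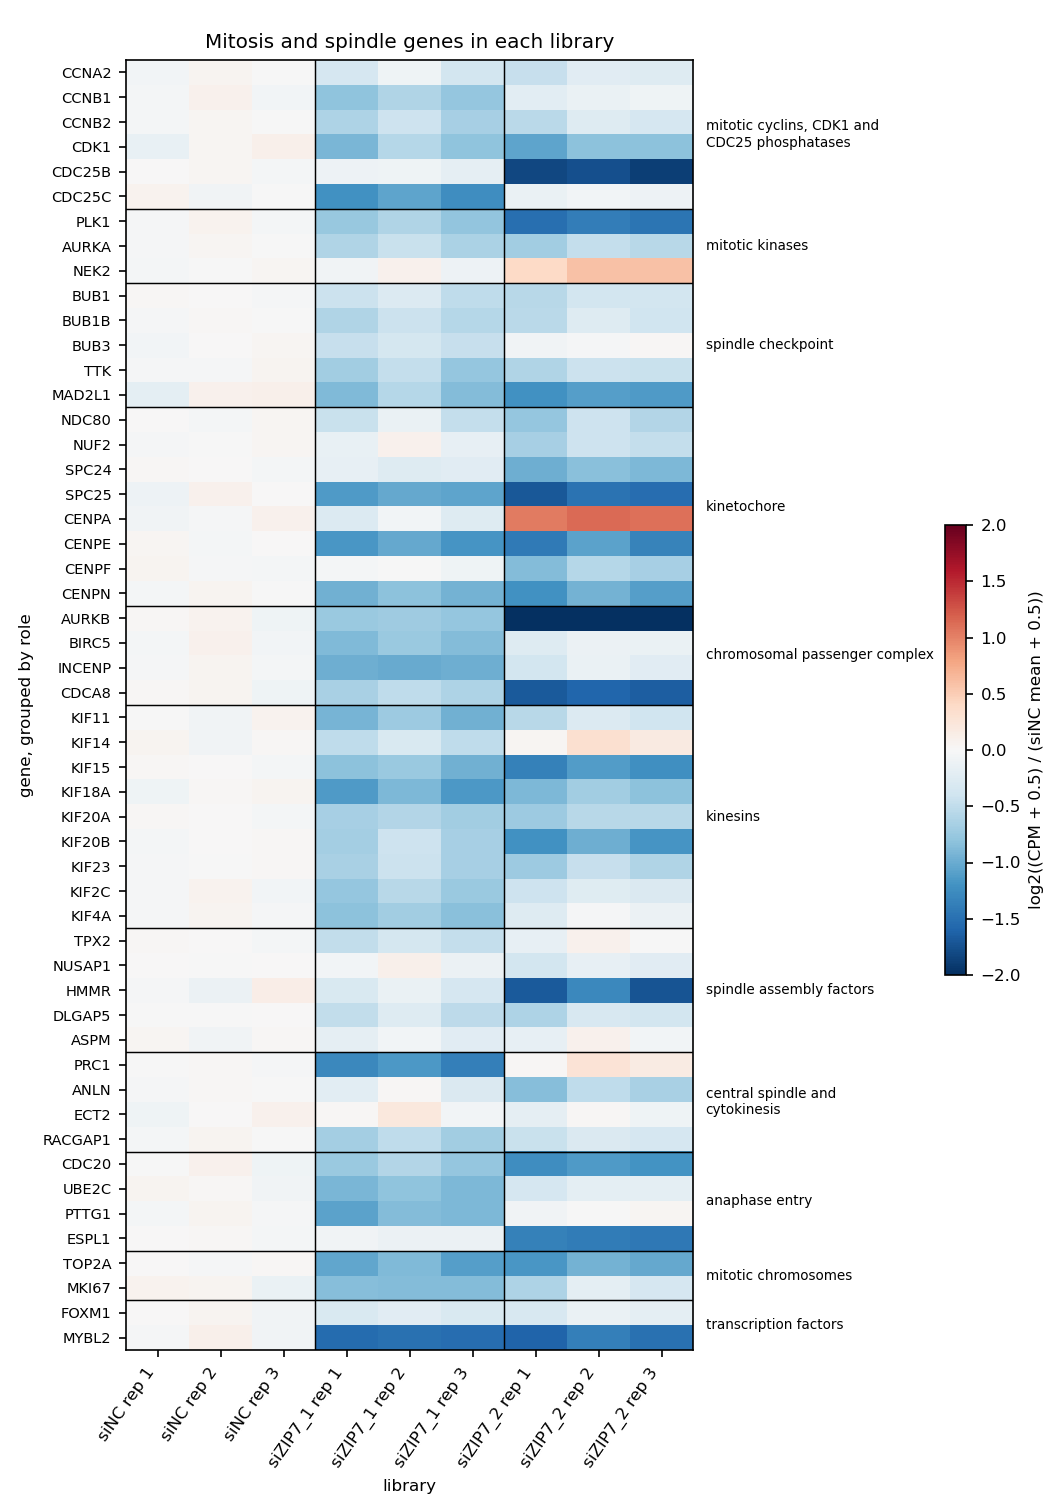
Expression of the 52 mitosis and spindle genes (rows, grouped by role) in each of the 9 libraries (columns), as log2 of the CPM plus 0.5 over the siNC mean plus 0.5. Colours end at -2 and 2. Most rows are blue in all 6 siZIP7 libraries, CENPA is red in the 3 siZIP7_2 libraries only, and AURKB reaches the lowest values there.

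The promoters of these genes share known sequence elements, which the choice of genes did not use. The cell cycle genes homology region (CHR) is a short element near the start site of G2 and mitosis genes to which MuvB complexes bind, and CCAAT boxes, bound by the trimeric factor NF-Y, often lie upstream of it. The RefSeq promoter table of GRCh38.p14 gives 250 bases before and 50 bases after each start, and 44 of the 52 genes had an entry. The letters TTTGAA, the CHR core, were found on either strand in the window of 32 of the 44 (72.7%), where 15.8% of protein-coding genes in the table held them. The variant TTTAAA was found for 15 of the 44 (34.1%), against 12.8%, and CCAAT for 36 (81.8%), against 42.1%. For 25 of the 44, TTTGAA or TTTAAA lay within the 50 bases before a start. The listed G1/S and DNA replication genes peak earlier in the cycle. In their 31 windows TTTGAA was found in 1 (3.23%), TTTAAA in 3 (9.68%) and CCAAT in 17 (54.8%). Among the other G2 and mitosis genes listed, TTTGAA was found in 15 of 26 windows (57.7%), TTTAAA in 2 (7.69%) and CCAAT in 18 (69.2%), and among other kinetochore subunits TTTGAA in 6 of 20 (30%), TTTAAA in 0 and CCAAT in 13 (65%). TTK, BIRC5, TPX2, AURKA, BUB3, UBE2C, RACGAP1 and FOXM1 had no entry. These are matches of letters and not sites shown to be bound.

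Below are the bases just before the start of 6 of the 9 genes whose 110 bases upstream touched no exon in GENCODE 29. MKI67, KIF11 and ESPL1 have the common arrangement of a CHR core close to the start with CCAAT upstream of it, CENPF has CCAAT alone in this stretch, CDK1 has its core farther away from this start, and CDC25B has none of the letters in this stretch. Both genes have other starts in the table. At its other start CDK1 has TTTGAA at -13 and -69 and CCAAT at -46 and -78, counted in bases from the start. CDC25B has TTTAAA at 33 bases after the start shown and CCAAT at -73 and -169 of other starts. Outside its stretch, CENPF has TTTAAA at -115 and TTTGAA at 41 bases after the start shown. Each sequence runs 5′ to 3′ on the strand of its gene, and capitals mark the letters TTTGAA or TTTAAA and the letters CCAAT on either strand, so that TTTGAA on the opposite strand reads TTCAAA and CCAAT there reads ATTGG. The marked letters of different elements overlap before the start of MKI67.
MKI67 (chr10:128126424-128126533, minus strand): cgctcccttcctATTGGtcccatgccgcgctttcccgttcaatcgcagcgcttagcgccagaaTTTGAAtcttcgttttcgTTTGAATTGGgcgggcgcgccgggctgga
KIF11 (chr10:92593020-92593129, plus strand): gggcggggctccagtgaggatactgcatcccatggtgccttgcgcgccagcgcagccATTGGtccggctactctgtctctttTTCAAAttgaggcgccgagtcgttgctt
ESPL1 (chr12:53268189-53268298, plus strand): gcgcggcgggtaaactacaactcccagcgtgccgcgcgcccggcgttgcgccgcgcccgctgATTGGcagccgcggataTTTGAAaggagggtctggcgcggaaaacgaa
CENPF (chr1:214603085-214603194, plus strand): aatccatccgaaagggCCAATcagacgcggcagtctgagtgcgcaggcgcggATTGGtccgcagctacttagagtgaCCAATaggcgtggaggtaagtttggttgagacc
CDK1 (chr10:60778161-60778330, plus strand): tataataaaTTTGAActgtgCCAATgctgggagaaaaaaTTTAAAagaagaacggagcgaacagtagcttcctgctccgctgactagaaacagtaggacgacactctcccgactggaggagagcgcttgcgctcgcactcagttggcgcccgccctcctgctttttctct
CDC25B (chr20:3799938-3800047, plus strand): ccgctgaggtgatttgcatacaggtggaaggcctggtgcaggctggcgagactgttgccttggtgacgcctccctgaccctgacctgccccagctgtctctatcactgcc

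Genes with the same arrangement differed in their response. MKI67 and KIF11 were lower with siZIP7_1, by log2 differences of siZIP7_2 over siZIP7_1 of 0.49 (adjusted p = 1.66e-07) and 0.47 (adjusted p = 8.39e-08). ESPL1 was lower with siZIP7_2, with a difference of -1.30 (adjusted p = 8.01e-20). The 32 genes with TTTGAA had a median log2 fold change of -0.59 with siZIP7_1 and -0.59 with siZIP7_2, and the 12 genes without it had -0.67 and -0.52. Of these 12, CCNB1, CDC25B, CENPE, KIF20A, KIF2C and PTTG1 held the variant of the CHR core in their windows. The core or its variant was found for 38 of the 44 genes with an entry. The medians therefore do not compare genes with and without a CHR, and a split by either form was not tested. MYBL2, whose window held none of the letters searched for, was among those that fell most with each siRNA.

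**Figure D2:**
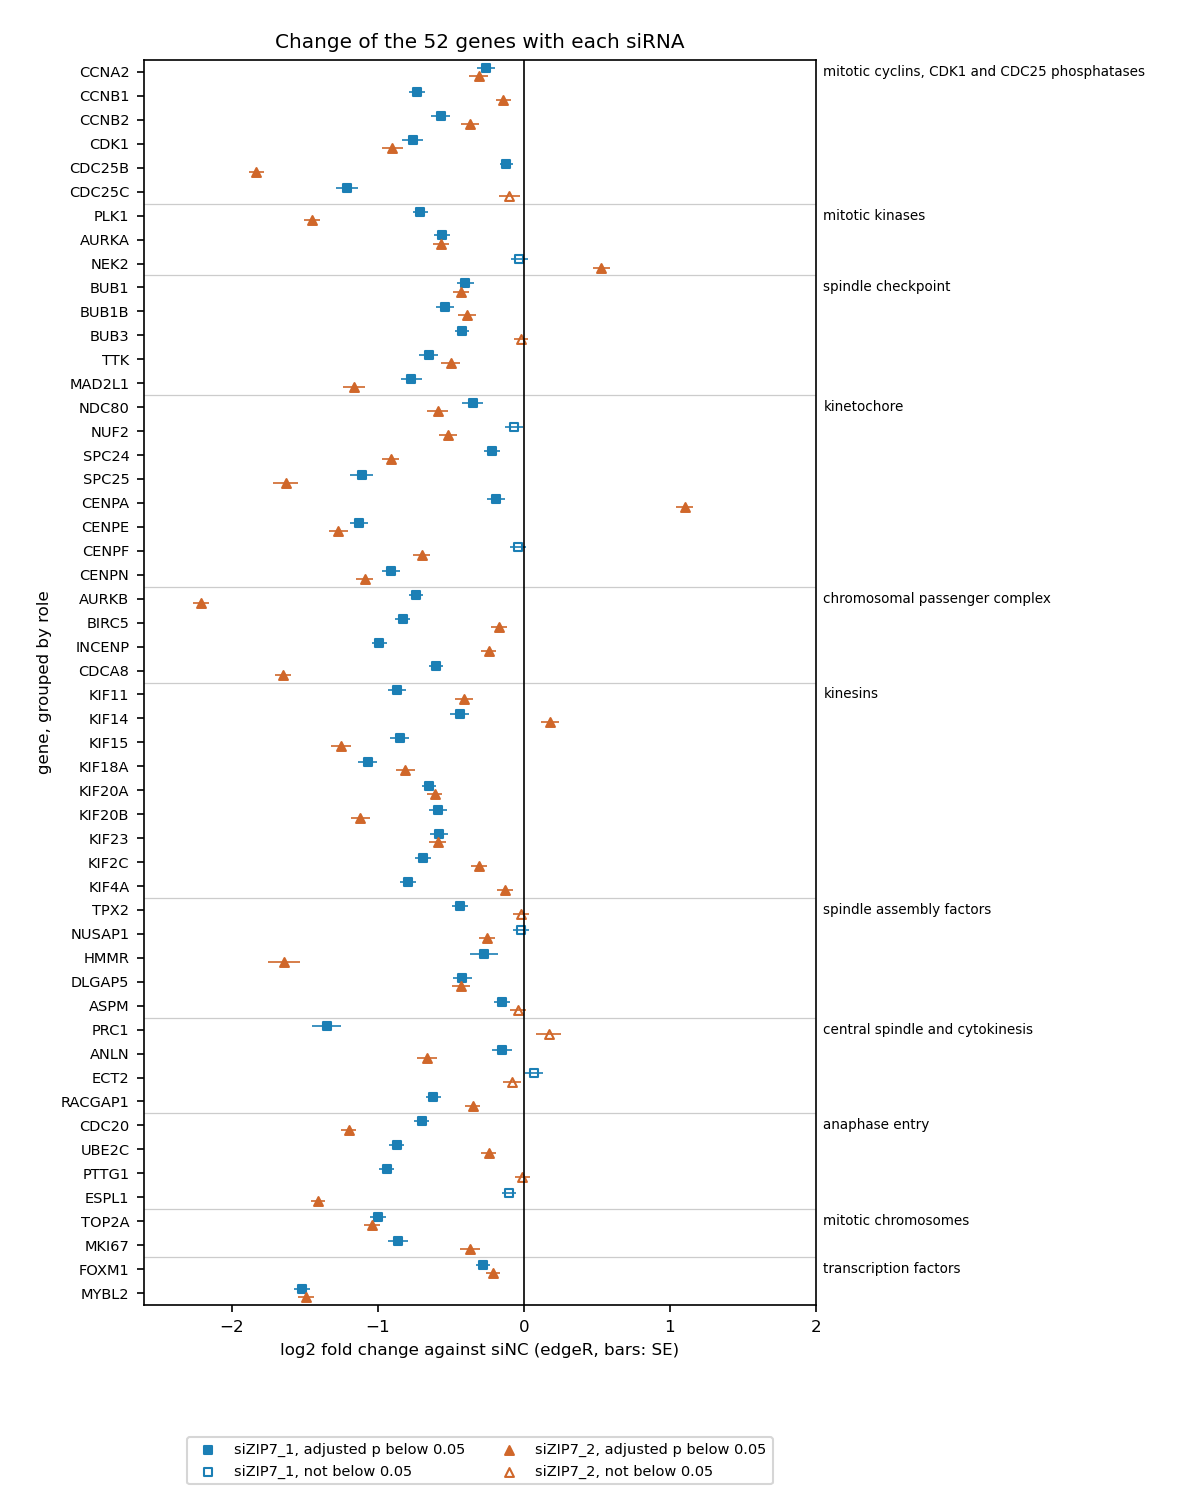
Log2 fold change against siNC of each of the 52 genes (rows, grouped by role) with siZIP7_1 (squares) and siZIP7_2 (triangles), from edgeR, with standard errors as bars. Filled symbols have an adjusted p under 0.05. Nearly all symbols lie to the left of 0, and the symbols of one gene are often well apart, as for AURKB, CDC25B, PRC1 and CENPA.

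The counts in each role group are to be read beside the 35.9% of all genes called lower with siZIP7_1 and the 39.3% with siZIP7_2. All 6 genes of the cyclin, CDK1 and CDC25 group were called lower with siZIP7_1, and 5 with siZIP7_2. CDK1, the kinase that drives mitotic entry, stood at 145, 163 and 171 CPM in siNC, at 84.9, 107 and 90.8 CPM with siZIP7_1 and at 76.3, 90.7 and 90.4 CPM with siZIP7_2. Neither siZIP7 group overlapped siNC, and the groups overlapped each other. For CDK1 the log2 fold change was -0.76 (SE 0.071, adjusted p = 9.75e-11) with siZIP7_1 and -0.90 (SE 0.071, adjusted p = 2.63e-12) with siZIP7_2. CCNA2, which encodes cyclin A2 and acts from S phase to early mitosis, changed less. It stood at 191, 206 and 195 CPM in siNC, 155, 186 and 154 CPM with siZIP7_1 and 142, 168 and 165 CPM with siZIP7_2, with log2 fold changes of -0.26 and -0.31.

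The B-type cyclins are the partners of CDK1 in mitosis. CCNB1 stood at 233, 255 and 232 CPM in siNC, at 137, 157 and 140.1 CPM with siZIP7_1 and at 207, 219.9 and 226 CPM with siZIP7_2. The siZIP7_1 libraries lay far below the others. The log2 fold change was -0.73 (SE 0.054, adjusted p = 6.47e-13) with siZIP7_1 and -0.14 (SE 0.053, adjusted p = 0.0185) with siZIP7_2, and the second call was lost with DESeq2 (adjusted p = 0.0922), under each other scaling of the counts, with at least 10 counts in every library (-0.065), without siNC replicate 2 (-0.095) and without siZIP7_2 replicate 1 (-0.098). CCNB2 stood at 79.8, 83.7 and 81.6 CPM in siNC, at 53.2, 61.1 and 51.3 CPM with siZIP7_1 and at 56.4, 68.3 and 64.6 CPM with siZIP7_2, with log2 fold changes of -0.57 and -0.37. The siZIP7 groups overlapped for CCNB2, and the log2 difference of siZIP7_2 over siZIP7_1 (0.19, SE 0.064, adjusted p = 0.00735) was no longer called without siZIP7_1 replicate 3 (0.13) or siZIP7_2 replicate 2 (0.13).

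The CDC25 phosphatases, which remove the inhibitory phosphates from CDK1, split between the siRNAs. CDC25B (ENSG00000101224, chr20:3786772-3806121 on GRCh38, plus strand) stood at 316, 320.5 and 303 CPM in siNC, at 292, 294 and 277 CPM with siZIP7_1 and at 87.9, 92.5 and 84.3 CPM with siZIP7_2. The fitted log2 fold change was -0.12 (SE 0.046, adjusted p = 0.0202) with siZIP7_1, and -1.83 (SE 0.049, adjusted p = 3.92e-23) with siZIP7_2. The first call was lost without siNC replicate 1 (-0.12), siNC replicate 2 (-0.099) or siZIP7_1 replicate 3 (-0.096). CDC25C (ENSG00000158402, chr5:138285265-138338355, minus strand) showed the reverse order, at 22.9, 20.8 and 21.6 CPM in siNC, 9.14, 10.3 and 8.91 CPM with siZIP7_1 and 19.7, 20.9 and 20.3 CPM with siZIP7_2. The siZIP7_2 libraries overlapped siNC, and the siZIP7_1 libraries lay below both. The log2 fold change of CDC25C was -1.21 (SE 0.077, adjusted p = 2.42e-14) with siZIP7_1 and -0.10 (SE 0.071, adjusted p = 0.19) with siZIP7_2.

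Of the mitotic kinases, PLK1 and AURKA were called lower with each siRNA. PLK1, which acts in centrosome maturation, spindle assembly and cytokinesis, stood at 179.6, 192 and 178 CPM in siNC, at 109, 121 and 106 CPM with siZIP7_1 and at 63.9, 70.1 and 66.5 CPM with siZIP7_2. The 3 groups did not overlap. Its log2 fold change was -0.71 (SE 0.052, adjusted p = 5.81e-13) with siZIP7_1 and -1.45 (SE 0.054, adjusted p = 7.64e-20) with siZIP7_2, and 12.5% of its exonic length overlaps genes on the opposite strand. AURKA, the centrosomal Aurora kinase, stood at 211, 222 and 214 CPM in siNC, 141, 158 and 138 CPM with siZIP7_1 and 133, 155 and 147 CPM with siZIP7_2, with log2 fold changes of -0.56 and -0.57. NEK2, which helps to separate centrosomes, was not called with siZIP7_1 (-0.03, adjusted p = 0.694) and was higher with siZIP7_2, by 0.53 (SE 0.059, adjusted p = 3.17e-09) on the log2 scale. It stood at 48.9, 49.8 and 51.7 CPM in siNC, 48.0, 53.0 and 46.7 CPM with siZIP7_1 and 66, 75.4 and 75.2 CPM with siZIP7_2, and only the siZIP7_2 libraries were clear of siNC.

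The spindle checkpoint genes were called lower with siZIP7_1 in 5 of 5 cases (35.9% of all genes) and with siZIP7_2 in 4 (39.3% of all genes). BUB1, a checkpoint kinase at kinetochores, stood at 199, 198 and 194 CPM in siNC, 146, 163 and 138 CPM with siZIP7_1 and 134, 152 and 153 CPM with siZIP7_2. Its log2 fold changes were -0.40 and -0.43. MAD2L1, which encodes the CDC20 inhibitor MAD2, changed most in this group, by -0.77 (SE 0.073, adjusted p = 1.44e-10) with siZIP7_1 and -1.16 (SE 0.075, adjusted p = 2.41e-14) with siZIP7_2. BUB1B and the kinase TTK had log2 fold changes of -0.54 and -0.65 with siZIP7_1 and of -0.39 and -0.50 with siZIP7_2. BUB3, the most abundant of the group in counts, was lower with siZIP7_1 (-0.42, SE 0.048, adjusted p = 5.5e-09) and stood at 316 ± 11 CPM (SD, n = 3) with siZIP7_2 against 321 ± 10.6 CPM (SD, n = 3) in siNC (adjusted p = 0.673).

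Among the 8 kinetochore genes, 6 were called lower with siZIP7_1, 7 were called lower with siZIP7_2 and 1 was called higher with siZIP7_2. Of all genes, 35.9% were lower with siZIP7_1, and 39.3% were lower and 38.5% higher with siZIP7_2. The higher gene, CENPA (ENSG00000115163, chr2:26764289-26801067, plus strand), encodes the histone H3 variant that marks centromeres. It stood at 41.9, 43.3 and 46.5 CPM in siNC, at 36.2, 42.2 and 36.8 CPM with siZIP7_1 and at 90.3, 97.2 and 95.0 CPM with siZIP7_2. The lowest siZIP7_2 library was well above every other library, and siZIP7_1 overlapped siNC. The log2 fold change was 1.10 (SE 0.058, adjusted p = 2.54e-16) with siZIP7_2 and -0.19 (SE 0.061, adjusted p = 0.00627) with siZIP7_1, the second of which was no longer called without siNC replicate 3 (-0.14) or siZIP7_1 replicate 1 (-0.15). In GENCODE 29, 6.96% of the exonic length of CENPA overlaps SLC35F6 on the same strand.

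The 4 subunits of the microtubule-binding NDC80 complex were then examined. NDC80 stood at 79.0, 76.0 and 80.1 CPM in siNC, 57.4, 71.2 and 56.2 CPM with siZIP7_1 and 45.8, 58.4 and 52.2 CPM with siZIP7_2, with log2 fold changes of -0.35 and -0.59. The siZIP7 groups overlapped, and the log2 difference of siZIP7_2 over siZIP7_1 (-0.24, SE 0.075, adjusted p = 0.00497) was no longer called without siZIP7_1 replicate 2 (-0.13) or siZIP7_2 replicate 1 (-0.15). Its partners had log2 fold changes of -0.07 and -0.52 for NUF2 (adjusted p = 0.341 with siZIP7_1, called at -0.15 without siZIP7_1 replicate 2), -0.22 and -0.91 for SPC24, and -1.11 and -1.63 for SPC25. SPC25 was thus reduced with each siRNA, while the level of NUF2 with siZIP7_1 overlapped siNC. CENPE, the kinetochore motor that aligns chromosomes, stood at 157, 148 and 153 CPM in siNC, 68.1, 74.8 and 67.1 CPM with siZIP7_1 and 57.1, 72.9 and 60.0 CPM with siZIP7_2. Its log2 fold changes were -1.13 and -1.27. CENPF, a large outer kinetochore protein, stood at 469.9, 443 and 440.2 CPM in siNC, 437, 450.3 and 425 CPM with siZIP7_1 and 246, 304 and 284 CPM with siZIP7_2, with log2 fold changes of -0.04 (adjusted p = 0.497) and -0.70. CENPN, an inner kinetochore protein, had -0.91 and -1.09, and 22.8% of its exonic length overlaps genes on the opposite strand.

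The 4 genes of the chromosomal passenger complex, which corrects faulty attachments and moves to the central spindle at anaphase, were called lower with each siRNA (35.9% and 39.3% of all genes), but in different proportions. AURKB (ENSG00000178999, chr17:8204733-8210600, minus strand), its kinase, stood at 129, 132 and 119 CPM in siNC, at 75.5, 77.1 and 73.9 CPM with siZIP7_1 and at 27.7, 27.5 and 26.6 CPM with siZIP7_2. The siZIP7_2 libraries were lowest and the siNC libraries highest, without overlap. Its log2 fold change with siZIP7_2, -2.21 (SE 0.054, adjusted p = 5.29e-24), was the lowest of the 52, and with siZIP7_1 it was -0.74 (SE 0.049, adjusted p = 5.84e-14). CDCA8, which encodes borealin, followed the same order, at 175, 181 and 164 CPM in siNC, 110.1, 122 and 113 CPM with siZIP7_1 and 53.7, 57.4 and 54.8 CPM with siZIP7_2, with log2 fold changes of -0.60 and -1.65. For INCENP, the scaffold, and BIRC5, which encodes survivin, the order was reversed. INCENP stood at 155, 164 and 152 CPM in siNC, 79.4, 78.2 and 79.8 CPM with siZIP7_1 and 122, 143 and 134 CPM with siZIP7_2, with log2 fold changes of -0.99 and -0.24. BIRC5 had -0.83 and -0.17, the second of which was lost with upper-quartile normalization (adjusted p = 0.244), with at least 10 counts in every library (-0.093), without siNC replicate 2 (-0.12) and without siZIP7_2 replicate 1 (-0.12).

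All 9 mitotic kinesins were called lower with siZIP7_1, and 8 with siZIP7_2, against 35.9% and 39.3% of all genes. KIF11, the plus-end motor that pushes the spindle poles apart, stood at 182, 175 and 191 CPM in siNC, 96.3, 109.9 and 93.3 CPM with siZIP7_1 and 124, 151 and 138 CPM with siZIP7_2, with log2 fold changes of -0.87 and -0.41. KIF20A and KIF23, motors of the central spindle, were reduced to much the same level by each siRNA. KIF20A stood at 192, 189 and 184 CPM in siNC, 119, 125 and 116 CPM with siZIP7_1 and 114, 128 and 128 CPM with siZIP7_2. KIF23 stood at 183, 185 and 188 CPM in siNC, 118, 137 and 117 CPM with siZIP7_1 and 112, 135 and 122 CPM with siZIP7_2. The siZIP7 groups overlapped each other for both motors. KIF20B, a relative of KIF20A with a role in cytokinesis, stood at 125, 129 and 129 CPM in siNC, 79.2, 95.3 and 80.0 CPM with siZIP7_1 and 54.8, 64.6 and 56.1 CPM with siZIP7_2, with log2 fold changes of -0.59 and -1.12.

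The remaining kinesins gave log2 fold changes with siZIP7_1 between -1.07 for KIF18A, which dampens chromosome oscillation, and -0.44 for KIF14. With siZIP7_2 KIF15, a spindle motor that can stand in for KIF11, had the lowest value (-1.25). KIF2C, a microtubule depolymerase, and KIF4A, a chromokinesin, had -0.31 and -0.13, and the call of KIF4A was lost with DESeq2 (adjusted p = 0.146), under each other scaling, with at least 10 counts in every library (-0.054), and without siNC replicate 2 (-0.10), siNC replicate 3 (-0.13), siZIP7_2 replicate 1 (-0.057) or siZIP7_2 replicate 3 (-0.13). KIF14 was called higher with siZIP7_2, at 110.3, 135 and 122 CPM against 112, 103 and 109 CPM in siNC and 75.3, 87.2 and 75.5 CPM with siZIP7_1. Its siZIP7_2 libraries overlapped siNC, and the log2 fold change of 0.18 (SE 0.062, adjusted p = 0.0089) was no longer called without siNC replicate 2 (0.15) or siZIP7_2 replicate 2 (0.11).

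Most spindle assembly factors changed by less than 1.5-fold. TPX2, which activates AURKA on the spindle, stood at 562, 559 and 540.0 CPM in siNC, 396, 434 and 396 CPM with siZIP7_1 and 493, 589.8 and 552 CPM with siZIP7_2. Its log2 fold change was -0.44 (SE 0.055, adjusted p = 3.54e-08) with siZIP7_1 and -0.02 (SE 0.055, adjusted p = 0.707) with siZIP7_2, where the libraries overlapped siNC. DLGAP5, which stabilizes kinetochore fibers, had -0.42 and -0.43. ASPM, a spindle pole protein, had -0.15 with siZIP7_1, and -0.04 with siZIP7_2 (adjusted p = 0.528), and the first call was lost without siNC replicate 1 (-0.13), siNC replicate 3 (-0.13), siZIP7_1 replicate 1 (-0.14) or siZIP7_1 replicate 3 (-0.12). NUSAP1, a microtubule bundler, had -0.02 (adjusted p = 0.755) and -0.25, but 62.2% of its exonic length overlaps another annotated gene on its strand, so that many of its reads may not have been counted. HMMR, a spindle and hyaluronan-binding protein, was the exception in size. It stood at 14.9, 14.0 and 16.7 CPM in siNC, 12.2, 13.9 and 12 CPM with siZIP7_1 and 4.39, 5.96 and 4.23 CPM with siZIP7_2, with log2 fold changes of -1.64 (SE 0.11, adjusted p = 7.7e-14) for siZIP7_2 and -0.27 (SE 0.096, adjusted p = 0.0151) for siZIP7_1. The second call was lost without siNC replicate 3 (-0.18), siZIP7_1 replicate 1 (-0.24) or siZIP7_1 replicate 3 (-0.22).

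In the central spindle and cytokinesis group, PRC1 gave the highest log2 difference of siZIP7_2 over siZIP7_1. PRC1 (ENSG00000198901, chr15:90966038-90995629, minus strand), which bundles antiparallel microtubules, stood at 12.6, 12.8 and 12.4 CPM in siNC, at 4.88, 5.39 and 4.58 CPM with siZIP7_1 and at 12.8, 15.3 and 14.2 CPM with siZIP7_2. The siZIP7_1 libraries were below all others, and the lowest siZIP7_2 library was level with the highest siNC library. The log2 fold change was -1.35 (SE 0.097, adjusted p = 4.1e-13) with siZIP7_1 and 0.17 (SE 0.085, adjusted p = 0.0762) with siZIP7_2, and the second was called with DESeq2's size factors in edgeR (0.20, adjusted p = 0.0351), with upper-quartile normalization (0.27, adjusted p = 0.00493), with at least 10 counts in every library (0.24, adjusted p = 0.0115) and without siZIP7_2 replicate 1 (0.24, adjusted p = 0.0189). PRC1 had the lowest level per length of the 52 in siNC (2.28 CPM per kb of exonic length), and 58.4% of that length overlaps AC068831.7 on the same strand or PRC1-AS1 on the opposite one, so that many of its reads may not have been counted. RACGAP1, a partner of KIF23, had -0.62 and -0.35. ANLN, which encodes the scaffold anillin, had -0.15 with siZIP7_1, and -0.66 with siZIP7_2, and its first call was lost with DESeq2 (adjusted p = 0.238), with upper-quartile normalization (-0.13), with at least 10 counts in every library (-0.13), and without siNC replicate 2 (-0.13), siNC replicate 3 (-0.14), siZIP7_1 replicate 1 (-0.12), siZIP7_1 replicate 3 (-0.086) or siZIP7_2 replicate 3 (-0.15). ECT2, which activates RhoA at the division plane, was not called with siZIP7_1 (0.07) or with siZIP7_2 (-0.08), and without the low-count filter it was called lower with siZIP7_2 (-0.13, adjusted p = 0.019).

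The regulators of anaphase entry differed in which siRNA gave the lower level. CDC20, the activator of the anaphase-promoting complex, stood at 292, 310.5 and 275 CPM in siNC, 175, 194 and 171 CPM with siZIP7_1 and 123, 133 and 128 CPM with siZIP7_2, with log2 fold changes of -0.70 (SE 0.053, adjusted p = 1.07e-12) and -1.20 (SE 0.054, adjusted p = 5.86e-18). ESPL1 (ENSG00000135476, chr12:53268299-53293643, plus strand), which encodes separase, was far lower with siZIP7_2. It stood at 101, 102 and 97.0 CPM in siNC, 95.3, 91.9 and 91.8 CPM with siZIP7_1 and 38.7, 37.5 and 36.9 CPM with siZIP7_2. Its log2 fold change was -1.41 (SE 0.05, adjusted p = 2.44e-20) with siZIP7_2 and -0.10 (SE 0.047, adjusted p = 0.0505) with siZIP7_1. PTTG1, which encodes securin, the inhibitor of separase, was lowest with siZIP7_1, at 129.6, 138 and 130.0 CPM in siNC, 63.2, 72.8 and 71.0 CPM with siZIP7_1 and 126, 132 and 136 CPM with siZIP7_2. The log2 fold change of PTTG1 was -0.94 (SE 0.053, adjusted p = 1.44e-15) with siZIP7_1 and -0.01 (SE 0.052, adjusted p = 0.842) with siZIP7_2, and it has near-identical gene copies that could share reads. UBE2C, the ubiquitin-conjugating enzyme of the complex, had -0.87 and -0.24, and it had the highest level per length of the 52 in siNC (165 CPM per kb).

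TOP2A and MKI67, proteins of mitotic chromosomes and common proliferation markers, were lower with each siRNA. TOP2A, the type II topoisomerase, stood at 635, 623 and 639.6 CPM in siNC, 308, 342 and 296 CPM with siZIP7_1 and 281, 329.6 and 312 CPM with siZIP7_2, with log2 fold changes of -1.0 (SE 0.056, adjusted p = 9.17e-16) and -1.04 (SE 0.056, adjusted p = 3.44e-16). MKI67, which encodes the Ki-67 antigen, stood at 607, 604 and 527 CPM in siNC, 320.1, 318 and 317 CPM with siZIP7_1 and 379, 505 and 458 CPM with siZIP7_2, with -0.86 and -0.37. The siZIP7_1 libraries lay within a narrow range and the siZIP7_2 libraries spread widely below siNC.

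Of the transcription factors that drive this program, MYBL2 fell further than FOXM1. MYBL2 stood at 210.0, 229 and 204 CPM in siNC, 73.6, 76.1 and 74.5 CPM with siZIP7_1 and 69.9, 82.5 and 75.8 CPM with siZIP7_2. Its log2 fold change was -1.52 (SE 0.055, adjusted p = 4.16e-20) with siZIP7_1, the lowest of the 52 in that comparison, and -1.49 (SE 0.055, adjusted p = 6.46e-20) with siZIP7_2. FOXM1 stood at 279.6, 288 and 264 CPM in siNC, 225, 236 and 225 CPM with siZIP7_1 and 221, 253 and 243 CPM with siZIP7_2, with log2 fold changes of -0.28 (SE 0.05, adjusted p = 1.84e-05) and -0.21 (SE 0.05, adjusted p = 0.000354). Its siZIP7 libraries were below siNC and overlapped each other, and 15.9% of its exonic length overlaps ITFG2 on the opposite strand.

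The siZIP7 groups were then compared with each other, to ask how far the response of these genes depended on the siRNA. Of the 52, 21 were called higher with siZIP7_2 than with siZIP7_1, 19 were called lower and 12 were not called. Among all genes tested, 38.1% were called higher and 40.6% lower, so the split of the 52 was close to that of genes in general. The median log2 difference was -0.01, and over all genes it was -0.02. By more than 1.5-fold, 5 were higher and 7 lower, against 20.8% and 19.8% of all genes.

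The genes that were higher with siZIP7_2 than with siZIP7_1 were led by PRC1 (log2 difference 1.51, SE 0.095, adjusted p = 1.23e-14), CENPA (1.29, SE 0.058, adjusted p = 4.42e-18) and CDC25C (1.11, SE 0.077, adjusted p = 1.31e-13), followed by PTTG1 (0.93) and INCENP (0.75). Those that were lower were led by CDC25B (-1.70, SE 0.049, adjusted p = 8.97e-23), AURKB (-1.47, SE 0.055, adjusted p = 4.26e-20) and HMMR (-1.37, SE 0.11, adjusted p = 4.62e-12), followed by ESPL1 (-1.30), CDCA8 (-1.05), PLK1 (-0.74) and SPC24 (-0.69). The 12 genes not called were CDK1, CCNA2, AURKA, BUB1, CENPE, KIF20A, KIF23, DLGAP5, ASPM, TOP2A, FOXM1 and MYBL2, with differences between -0.14 and 0.11. Some calls near the threshold depended on the setting. Of the 12, ASPM was called under each alternative that left out no single library, apart from that without the low-count filter (0.15 with DESeq2, adjusted p = 0.0255), FOXM1 with upper-quartile normalization (0.14), at least 10 counts in every library (0.11) or without siZIP7_2 replicate 1 (0.12), and KIF20A with upper-quartile normalization (0.12). ASPM was also called without siZIP7_1 replicate 2 (0.16) or siZIP7_2 replicate 1 (0.17). CDK1 and CENPE were called without the low-count filter (-0.18 and -0.19), without siNC replicate 1 (-0.14 and -0.15), siZIP7_1 replicate 1 (-0.21 and -0.17) or siZIP7_1 replicate 3 (-0.17 and -0.18), and CENPE also without siZIP7_2 replicate 2 (-0.26). The call of TTK (0.15) was lost without the low-count filter (0.10) and without siNC replicate 2 (0.15) or 3 (0.15), siZIP7_1 replicate 1 (0.12) or 3 (0.08), or siZIP7_2 replicate 2 (0.12) or 3 (0.13). That of BUB1B (0.15) was lost without the filter (0.096) and without siNC replicate 2 (0.14), siZIP7_1 replicate 1 (0.10) or 3 (0.12), or siZIP7_2 replicate 2 (0.072) or 3 (0.14). For ECT2 (-0.14) it was lost with DESeq2 (-0.11), under each other scaling and the 10-count filter, in the fit to the pair of groups, and without siZIP7_1 replicate 2 (-0.071), siZIP7_2 replicate 1 (-0.095) or siZIP7_2 replicate 3 (-0.14). For CENPN (-0.18) it was lost with DESeq2 (-0.14), upper-quartile normalization (-0.098), the 10-count filter (-0.13) and without siZIP7_2 replicate 1 (-0.11). Genes of one complex fell on both sides, as AURKB and CDCA8 against INCENP and BIRC5 in the passenger complex, and separase against securin. SLC39A7 itself was lower with siZIP7_2 than with siZIP7_1 (-0.89, SE 0.066, adjusted p = 4.89e-13).

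**Figure D3:**
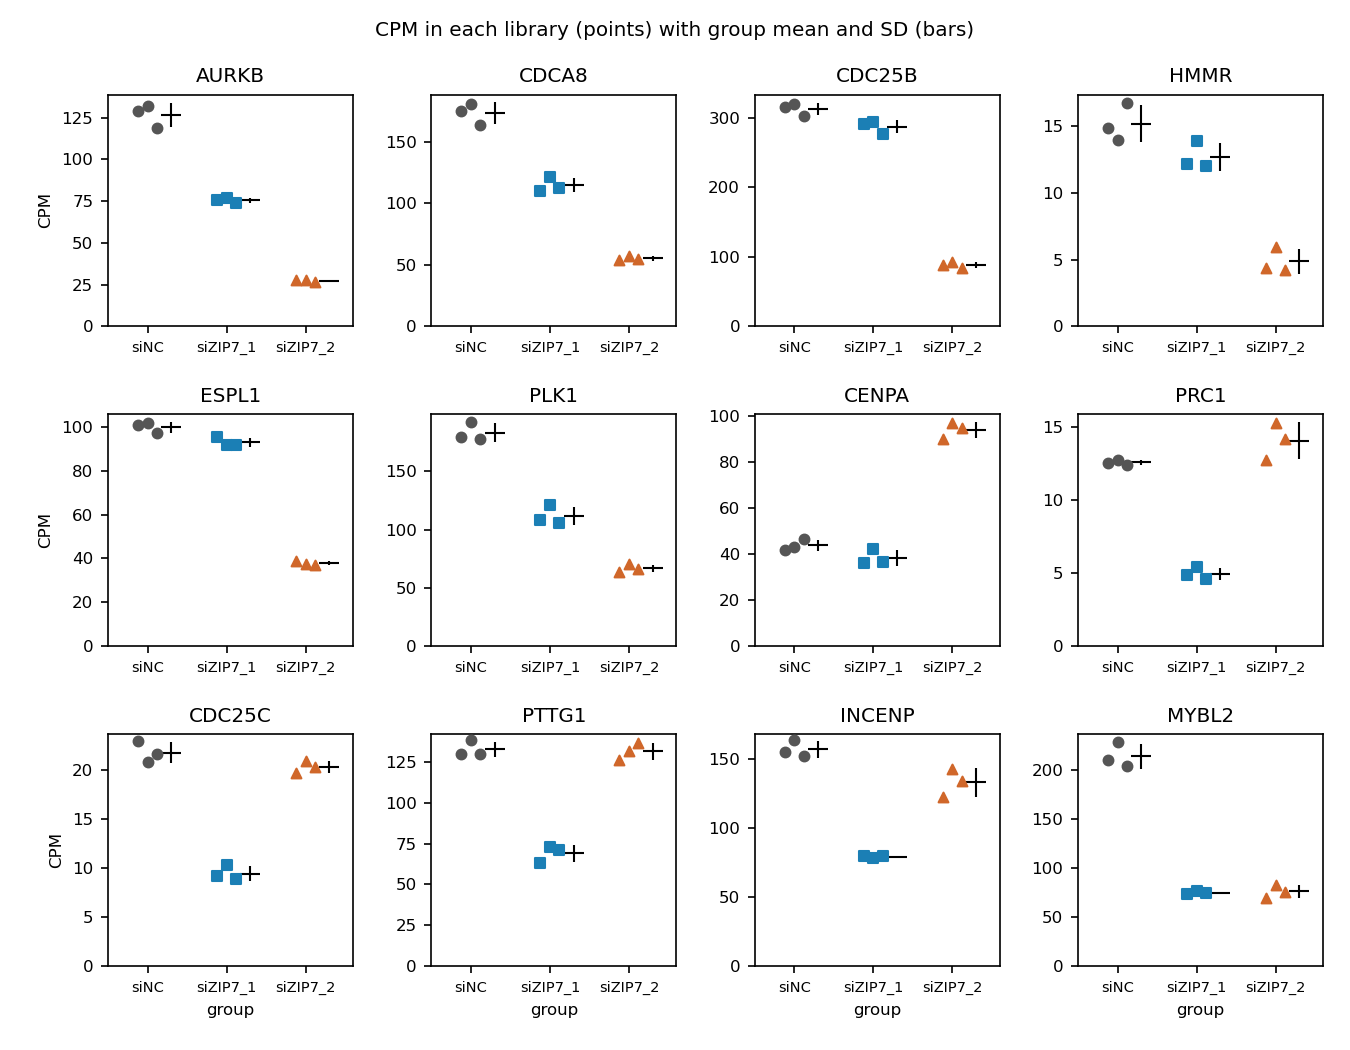
Normalized expression (CPM, axes from 0) of 12 of the genes in each library, by siRNA group, with the group mean and SD beside the points. The top row and the first columns of the second show genes lowest with siZIP7_2, then come CENPA and the genes lowest with siZIP7_1, and MYBL2 is reduced to a similar level by each siRNA.

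Other genes of the cell cycle were examined in lists written by function. Of the 32 other G2 and mitosis genes, 31 were called lower and 0 higher with siZIP7_1 (35.9% and 34.8% of all genes). With siZIP7_2, 26 were called lower and 3 higher (39.3% and 38.5%). Their median log2 fold changes were -0.48 and -0.57, beside -0.61 and -0.46 for the 52. MELK, a kinase of mitotic cells, was lowest with siZIP7_1 (-1.71), and TRIP13, which remodels MAD2, and MASTL, the greatwall kinase, were lowest with siZIP7_2 (-1.84 and -1.63). CKAP2L, a spindle protein, was -0.77 with siZIP7_1 and 0.45 with siZIP7_2. Of 27 other kinetochore subunits, 20 were called lower and 1 higher with siZIP7_1, and 22 lower and 1 higher with siZIP7_2. CENPH, an inner kinetochore subunit, fell most, from 16.7 ± 1.26 CPM (SD, n = 3) in siNC to 2.30 ± 0.242 CPM (SD, n = 3) under siZIP7_2, or by a log2 fold change of -2.85.

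The counts in the lists that follow stand beside 35.9% of all genes called lower and 34.8% higher with siZIP7_1, and 39.3% and 38.5% with siZIP7_2. Condensin, which compacts mitotic chromosomes, was lower for 7 of 8 subunits with siZIP7_1 and for 8 with siZIP7_2. NCAPH was lowest with siZIP7_1 (-1.72) and NCAPD3 with siZIP7_2 (-1.44), while SMC2 was called higher with siZIP7_1 (0.18). Subunits and regulators of the anaphase-promoting complex, most of which are not periodic, were called lower in 10 and higher in 3 of 17 cases with siZIP7_1, and lower in 11 and higher in 4 with siZIP7_2. FBXO5, its interphase inhibitor EMI1, was lower with each siRNA (-1.20 and -1.05). Cohesin genes had medians of -0.18 and -0.13, with 6 lower and 2 higher of 11 with siZIP7_1 and 7 lower and 3 higher with siZIP7_2. Of 17 tubulins and gamma-tubulin complex genes, 12 were lower and 0 higher with siZIP7_1, and 9 lower and 5 higher with siZIP7_2. TUBB, the most abundant, had means of 2479 ± 58.1 CPM, 1331 ± 65.8 CPM and 962 ± 61.1 CPM in siNC, siZIP7_1 and siZIP7_2 (SD, 3 libraries each).

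The G1/S and DNA replication genes were called lower in 34 of 36 cases with siZIP7_1 and in 36 with siZIP7_2, with 0 called higher in each. Their medians were -0.83 and -1.47. They summed to 58.8% of the siNC level with siZIP7_1 and to 41.1% with siZIP7_2, whereas the mitosis and spindle genes summed to 69.6% and 70.1%. Between the siRNAs, 29 of the 36 replication genes were called lower with siZIP7_2 and 3 higher, against 40.6% and 38.1% of all genes, with a median log2 difference of -0.72 beside the -0.01 of the 52. CCNE2, a cyclin of the G1/S transition, and PRIM1, the primase subunit, were lowest with siZIP7_2 (-2.74 and -2.55), and GINS3, part of the replicative helicase, was lowest with siZIP7_1 (-1.83).

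**Figure D4:**
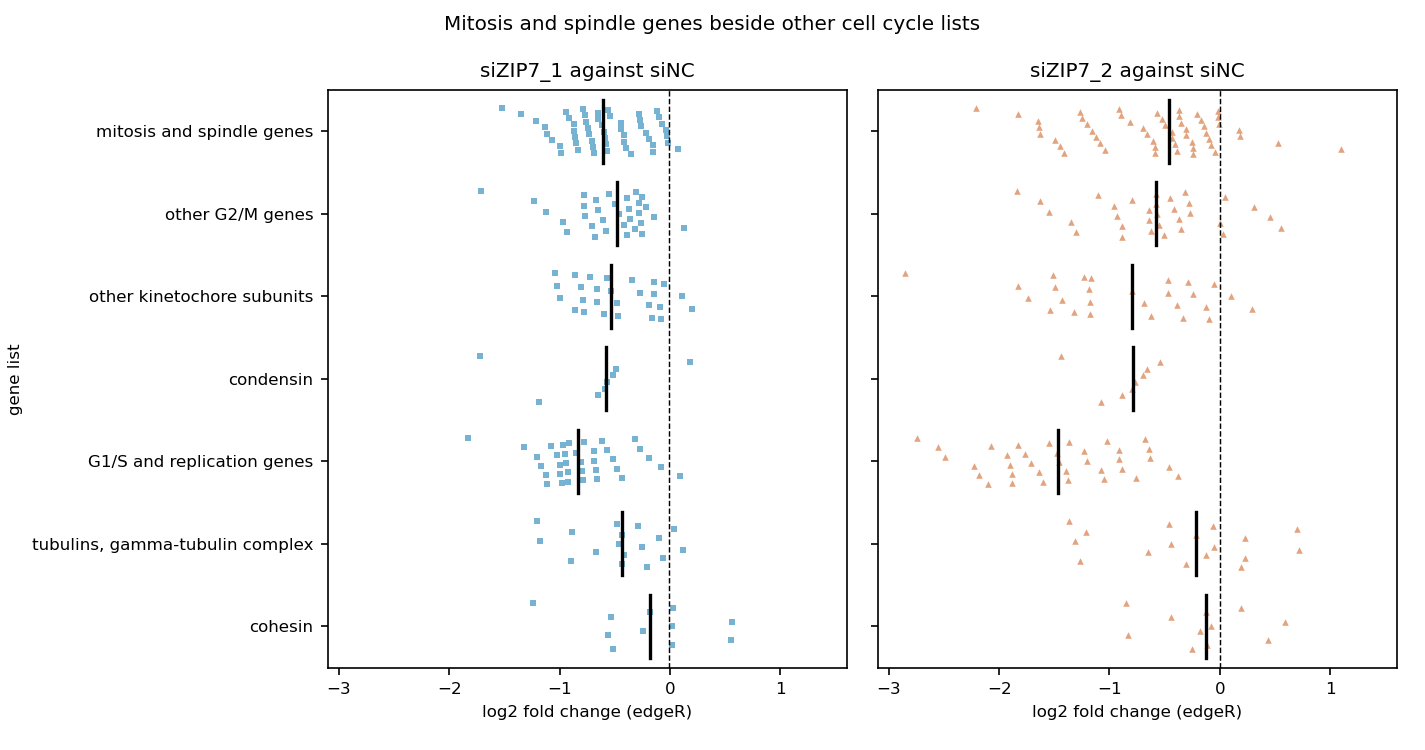
Log2 fold change against siNC for each gene (points) of the 52 mitosis and spindle genes and of 6 other lists, with siZIP7_1 on the left and siZIP7_2 on the right. Black bars mark list medians, and the dashed line marks the median of all genes tested. The median of the replication genes moves from -0.83 to -1.47, and that of the 52 from -0.61 to -0.46.

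The CDK inhibitors were among the regulators examined. CDKN1A, which encodes the CDK inhibitor p21, stood at 110.4, 119.9 and 109 CPM in siNC, at 24.9, 24.1 and 24.4 CPM with siZIP7_1 and at 281, 255 and 273 CPM with siZIP7_2. It was thus lowest with siZIP7_1 and highest with siZIP7_2, with log2 fold changes of -2.21 (SE 0.056, adjusted p = 1.05e-23) and 1.25 (SE 0.049, adjusted p = 2.4e-19). CDKN1C, which encodes p57, had -1.10 and 1.82, and CCND2, a G1 cyclin, had -1.45 and 1.39. CDKN2A and CDKN2B, which encode the INK4 inhibitors, were at or under the floor of 3 counts in every library. PKMYT1, an inhibitory kinase of CDK1, had -0.54 and -1.69. Of 13 such regulators tested, 8 were called lower and 3 higher with siZIP7_1, against 35.9% and 34.8% of all genes. With siZIP7_2, 6 were lower and 6 higher, shares close to the 39.3% and 38.5% of all genes.

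Among 21 E2F, DREAM and MuvB factors, 11 were called lower and 7 higher with siZIP7_1, and 13 lower and 5 higher with siZIP7_2. As shares, 52.4% were lower and 33.3% higher with siZIP7_1, against 35.9% and 34.8% of all genes, and 61.9% lower and 23.8% higher with siZIP7_2, against 39.3% and 38.5%. E2F7, a repressor of the family, averaged 329.6 ± 4.67 CPM, 214 ± 4.01 CPM and 629 ± 34.1 CPM in siNC, siZIP7_1 and siZIP7_2 (SD, 3 libraries each). E2F2, an activator, averaged 15.3 ± 0.473 CPM, 17.4 ± 0.666 CPM and 1.96 ± 0.616 CPM in the same order, and its log2 difference between the siZIP7 groups was -3.12. RBL1, which encodes p107 of the DREAM complex, was lower with each siRNA (-1.06 and -1.77).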

How the data were processed

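RNA-seq covered 9 libraries of MDA-MB-231, made 96 h after transfection, with 3 libraries for each of siNC, siZIP7_1 and siZIP7_2. The values deposited by the authors are unnormalized counts of single reads for each Ensembl gene, with 1 table for each library. The submitters' processing notes name Trim Galore 0.4.1, FastQC 0.11.2, STAR, HTSeq 0.6.1 and DESeq2 1.16.1. The genome build and strand setting of the counting are not given in the sources used here, so that reads of overlapping antisense genes may not be separable. Summary lines that name no gene were kept out of library sizes. Reads outside genes made up 7.43% to 11.5% and ambiguous reads 2.66% to 2.91% of a library, and 0 multiply aligned reads were listed.

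Symbols, positions and exonic overlaps were taken from GENCODE 29 (GRCh38), where 58275 of 58395 identifiers were found. Tests used edgeR 4.0.16 in R 4.3.3 (TMM, filterByExpr, quasi-likelihood F-test). A single model of the 3 groups had 6 residual degrees of freedom and a biological coefficient of variation of 4.50%. P-values were adjusted by the Benjamini-Hochberg method over 16761 genes and called at 0.05, and glmTreat gave the test against a change of 1.5-fold. Standard errors were taken as the absolute log2 fold change over the square root of F. Libraries of the same group differed with a chi-squared per gene of 2.41 to 6.42, and those of different groups with at least 153, so that each library counted once. The scripts were tested on simulated data of 16313 genes, with 100 changed by a log2 of 0.5 and 100 by a log2 of 1. Far more genes were called in the real data, so the simulation does not cover that setting. Against siNC, edgeR recovered 68% and 88% of these genes for siZIP7_1 and 72% and 89% for siZIP7_2. Of its calls, 2.5% and 6.4% were false. Promoter windows came from a RefSeq table of GRCh38.p14.

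The settings varied were the tool (DESeq2 1.42.0), the scaling (size factors of DESeq2 used in edgeR, and the upper quartile), the filter (none, or a minimum of 10 counts in all libraries), a block for the replicate number, separate fits for each pair of groups, and the removal of each library in turn. The 52 genes, the other lists and the tests were chosen with earlier results of these data known. Named genes are the 52 and, in each other list and comparison, up to 3 called genes with the largest change. PGR, CD3E, CDKN2A and CDKN2B are named outside this rule because they were at or under the floor of 3 counts in every library, and ERBB2 as the most abundant of its list. Every library is given for SLC39A7, for 23 members set by name and for the 3 members with the largest called change in each direction and comparison. INCENP, ESPL1, PTTG1 and CDKN1A, also given in every library, were picked after their values were seen.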

Additional observations from a re-analysis of the deposited data

Results flagged for a closer look

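CENPA and KIF14 were picked out because the siRNAs changed them in opposite directions against siNC, each past the threshold of edgeR's quasi-likelihood test, and because the difference between the siZIP7 groups was itself tested. Both contrasts share the siNC libraries. The genes were picked from these same values, so the p-values of the difference add no independent support. For CENPA the log2 difference of siZIP7_2 over siZIP7_1 was 1.29 (SE 0.058, adjusted p = 4.42e-18), and each of the 3 siZIP7_2 libraries lay above all 6 others. For KIF14 it was 0.63 (SE 0.062, adjusted p = 2.98e-10), and each of the 3 siZIP7_2 libraries lay above all siZIP7_1 libraries. The directions against siNC rest on small changes, a log2 fold change of -0.19 for CENPA with siZIP7_1 and of 0.18 for KIF14 with siZIP7_2. The former was no longer called without siNC replicate 3 (-0.14) or siZIP7_1 replicate 1 (-0.15), and the latter without siNC replicate 2 (0.15) or siZIP7_2 replicate 2 (0.11).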

How the results depend on the processing

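The counts of genes called among the 52, their medians and the counts over all genes stayed within 1.5 times their values, or within the spread, under every alternative tried. With siZIP7_1 between 42 and 47 of the 52 were called lower, and with siZIP7_2 between 39 and 43. Of all genes tested, 5270 to 6218 were called lower and 5201 to 6047 higher with siZIP7_1. With siZIP7_2 these ranges were 5636 to 7084 and 5506 to 7256. Upper-quartile normalization moved the median of all genes by most, to 0.10 with siZIP7_2 against siNC. Same-numbered libraries had a mean correlation of deviations of 0.0107 (range -0.041 to 0.0618) and others of -0.00535, so these values show no pairing by number. Among the 52, however, replicate 2 was most often the highest library in each of the 3 groups, and what this shared number reflects was not tested. With the replicate block 46 and 42 of the 52 were called lower with siZIP7_1 and siZIP7_2. Of all genes tested, 6056 and 6604 were then called lower, and 5871 and 6476 higher. Between the siZIP7 groups CDK1 (-0.13, adjusted p = 0.0175), CENPE (-0.14, adjusted p = 0.021) and ASPM (0.11, adjusted p = 0.0479) became called with the block. It changed no call of the 52 against siNC.

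Fold changes near 0 that were not called changed sign under some settings, and the cause was not tested. With siZIP7_1 against siNC, NUSAP1 became 0.0027 with at least 10 counts in every library and 0.0048 with upper-quartile normalization. With siZIP7_2 against siNC, BUB3, TPX2 and PTTG1 became 0.0099, 0.0091 and 0.021 with DESeq2, and 0.0099, 0.0092 and 0.021 with its size factors in edgeR. They became 0.052, 0.051 and 0.063 with at least 10 counts, where ASPM became 0.035, and 0.084, 0.083 and 0.095 with upper-quartile normalization, where ASPM became 0.066, CDC25C 0.0043 and ECT2 0.028. Between the siZIP7 groups, AURKA, BUB1, KIF23 and DLGAP5 became 0.026, 0.0093, 0.026 and 0.022 with DESeq2, 0.027, 0.0095, 0.026 and 0.022 with its size factors, 0.044, 0.026, 0.043 and 0.039 with at least 10 counts, and 0.073, 0.056, 0.072 and 0.068 with upper-quartile normalization. TOP2A became 0.016 and 0.045 in the last 2 settings, and CCNA2 0.024 in the last. In the fit to the pair of groups AURKA, KIF23 and DLGAP5 became 0.013, 0.012 and 0.0085, and without a low-count filter KIF20A and MYBL2 became -0.0056 and -0.022.

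With each library left out in turn, values that changed sign ranged as follows. With siZIP7_1 they ran from -0.014 to 0.12 for ECT2, -0.084 to 0.012 for NEK2 and -0.088 to 0.026 for NUSAP1. With siZIP7_2 they ran from -0.10 to 0.027 for ASPM, -0.057 to 0.011 for BUB3, -0.037 to 0.024 for PTTG1 and -0.077 to 0.052 for TPX2. Between the siZIP7 groups they ran from -0.058 to 0.053 for AURKA, -0.085 to 0.039 for BUB1, -0.12 to 0.031 for CCNA2, -0.071 to 0.074 for DLGAP5, -0.078 to 0.063 for KIF23, -0.035 to 0.088 for MYBL2 and -0.089 to 0.028 for TOP2A.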
